A study of Bos taurus with 9 samples.

Results

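Among the lncRNAs of LPS-treated bovine mammary epithelial cells, 168 of 2257 were assembled transcripts that lie on the same strand as an annotated gene for which the deposited values give only an Ensembl identifier and no symbol. They were taken as all assembled transcripts (TCONS identifiers) whose name joins such an identifier (ENSBTAG) with OT and a number, the label of a sense overlapping transcript, whose mean over 9 libraries was at most 10 FPKM, and which are placed on a chromosome. FPKM is the number of fragments scaled to the length of the transcript and to the mapped fragments of the library. Of 186 sense lncRNAs at hosts without symbols, 14 on unplaced scaffolds and 4 with a mean above 10 FPKM were left out. The 168 belong to 120 host genes, and 0 of these hosts could be matched to a gene name in the reference table used here, so each is described by its identifier and position on the genome build ARS-UCD1.2.

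The cells were MAC-T, an immortalized bovine mammary epithelial line used as a culture model of mastitis. They were collected untreated (0 h) and at 6 and 12 hpi, that is hours after the addition of 50 ng/μL LPS, a component of the outer membrane of Gram-negative bacteria, with 3 replicates at each of the 3 time points. Each time point came from a culture plate of its own, and no cells cultured for 6 or 12 h without LPS were analysed here, so LPS, time in culture and plate cannot be told apart. Of 16 marker genes of epithelial cells, fibroblasts and leukocytes, 0 were found among the host symbols, since the values cover lncRNAs alone, so the cell type could not be checked.

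Long noncoding RNAs are long transcripts without clear coding potential that can act in the nucleus on chromatin and transcription or in the cytoplasm on mRNA and proteins. A sense overlapping lncRNA shares the strand, and often exons, of its host gene, and several assembled transcripts can belong to a single host. Short reads that fall in a shared exon are divided among such transcripts by a statistical estimate. In mammary epithelial cells LPS is sensed through TLR4, which leads to NF-κB activation and the release of cytokines.

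For a single one of the 168, TCONS_00157698 (ENSBTAG00000047213-OT3, X chromosome, 49935034 to 49993278), the study lists PCR primers. Whether these single it out from the other member of its host was not checked. The primers are shown here because they are the designed sequences by which a transcript without a named host can be looked for. Both are written 5′ to 3′ in lower case and are 19 nucleotides long with 52.6% G and C.
forward primer: ggaggtgaacaacaagtgg
reverse primer: gccatctggatcaggtttc
This transcript was listed at 0 FPKM in all 3 libraries of 0 h, at 0.493, 0 and 0 FPKM at 6 hpi and at 0.0449, 3.87 and 1.28 FPKM at 12 hpi. It had the widest spread of the 168, with an SD of 2.03 on the log2(FPKM + 0.1) scale over 9 libraries, and was not tested because it passed 0.5 FPKM in only 2 libraries. The study names this transcript among the lncRNAs it measured by qRT-PCR, for 12 hpi against 0 h. It reports that qRT-PCR and sequencing gave similar patterns.

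Sense lncRNAs at hosts without symbols were scarce, long in genomic span and unevenly placed. Their median mean FPKM was 0.644 (quartiles 0.446 and 1.18, range 0.168 to 6.35), with 51 above 1 FPKM and 19 above 2 FPKM. Among other lncRNAs with a mean of at most 10 FPKM the median was 0.718 for 639 sense transcripts at hosts with symbols, 0.658 for 584 antisense, 0.605 for 593 intergenic and 0.812 for 192 annotated ones. From first to last base, introns included, they spanned a median of 34.7 kb (quartiles 14.4 and 84.7 kb), against 9.999 kb at hosts with symbols, 8.61 kb for antisense, 6.20 kb for intergenic and 4.52 kb for annotated lncRNAs. The longest, TCONS_00103119 (ENSBTAG00000051166-OT2, chromosome 28, 30038484 to 30555956), covered 517 kb, which is the longest span of all 2257 lncRNAs, and had 2.40 to 4.03 FPKM. These differences between classes are descriptions without a test, since transcripts of a host share their span.

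On the map, 26 of the 168 lay on chromosome 18, where they made up 22.6% of 115 lncRNAs, and 9 lay on chromosome 26, where they made up 21.4% of 42. Over all chromosomes they were 7.53% of 2232 lncRNAs, and 29 of 30 chromosomes held at least 1. Within 100 kb, 72 had a lncRNA of another host, and 37 overlapped such a lncRNA. Of those 37, 24 overlapped another member of the class, 9 a sense lncRNA at a host with a symbol and 7 an antisense lncRNA. In all, 29 lay within 100 kb of a sense lncRNA with a named host, and 15 symbols were found in this way. They included NETO2, which encodes an auxiliary subunit of kainate receptors, P4HA1, a catalytic subunit of the prolyl hydroxylase of collagen, RCC1, the nucleotide exchange factor of Ran, and PCTP, a phosphatidylcholine transfer protein. These symbols give a position in the genome and are not names of the hosts.

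The most abundant members differed in how far they varied. TCONS_00020898 (ENSBTAG00000052052-OT1, chromosome 11, 78796731 to 78814714) had 5.21, 5.59 and 6.57 FPKM at 0 h, 5.27, 6.03 and 7.27 at 6 hpi and 8.32, 5.71 and 7.17 at 12 hpi. TCONS_00059797 (ENSBTAG00000053634-OT2, chromosome 19, 43280476 to 43291662) had 3.75, 5.45 and 6.31 FPKM at 0 h, 4.80, 6.71 and 8.74 at 6 hpi and 4.70, 6.42 and 8.93 at 12 hpi. For both, the libraries of the 3 time points overlapped. These were the members nearest to the limit of 10 FPKM, with means of 6.35 and 6.20 FPKM. The nearest transcripts beyond it were TCONS_00117108 (ENSBTAG00000052466-OT1) with a mean of 15.1 FPKM and TCONS_00015548 (ENSBTAG00000048620-OT1) with 34.4 FPKM, so no transcript lay close to the limit. Next in level were TCONS_00051717, described among the transcripts lower at 12 hpi, TCONS_00095130 (ENSBTAG00000050791-OT1) with 3.26 to 7.70 FPKM, TCONS_00047268 (ENSBTAG00000053945-OT1) with 2.72 to 6.93 FPKM and TCONS_00019468 (ENSBTAG00000051513-OT1) with 2.74 to 5.64 FPKM.

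Most members were found in every library, but at low and uneven values. In all, 115 of 168 (68.5%) were above 0 in all 9 libraries, compared with 71.7% of sense lncRNAs at hosts with symbols, and 44 (26.2%) were above 0.5 FPKM in all 9. At the other end, 3 were above 0 in 1 library, 3 in 2 and 1 in 3 libraries. A single library held over 50% of the summed FPKM of 14 members (8.33%), compared with 5.79% at hosts with symbols. The number of members listed at 0 was 10 to 17 in the libraries of 0 h, 16 to 22 in those of 6 hpi and 11 to 15 in those of 12 hpi. Over all libraries the median was 0.586 to 0.797 FPKM, and the sum of all members was 157 to 189 FPKM. The number of reads behind each FPKM is not in the deposited values, so a value of 0 does not say that a transcript was absent. The study states more mapped reads for each untreated library than for any library after LPS, and the part of this in the number of values at 0 was not tested. It states the lowest shares of reads that mapped for 0 h replicates 1 and 2 and 6 hpi replicate 1. The part of these shares in the values was not tested either. Between pairs of libraries, R2 of log10(FPKM + 1) over the 168 had a median of 0.466 for the 9 pairs of a time point and of 0.417 for the 27 pairs across time points (range 0.321 to 0.692), which is a description over transcripts that share hosts and libraries.

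The uneven values were concentrated where a host had several transcripts. Of the 120 hosts, 88 had 1 member, 20 had 2, 9 had 3, 2 had 4 and 1 had 5, so that 80 members shared 32 hosts. At these 32 hosts 112 values (15.6%) were listed at 0, compared with 24 (3.03%) at the other 88. In 67 of those 112 cases (59.8%) the other members of the host summed to more than their own median in that same library. By construction at most 4 of 9 libraries can lie above such a median, and the share was not tested against this. The median SD on the log2(FPKM + 0.1) scale was 1.12 for members with a companion and 0.53 for those without. When FPKM was summed over a host, the SD had a median of 0.39 over the 32 hosts, compared with 1.01 for the median member of each host. The sum varied less than the median member at 31 hosts, with ENSBTAG00000045581 as the exception, and less than every member at 22. A sum also has a higher FPKM than its parts, and the part of this in its lower SD was not tested.

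**Figure D1:**
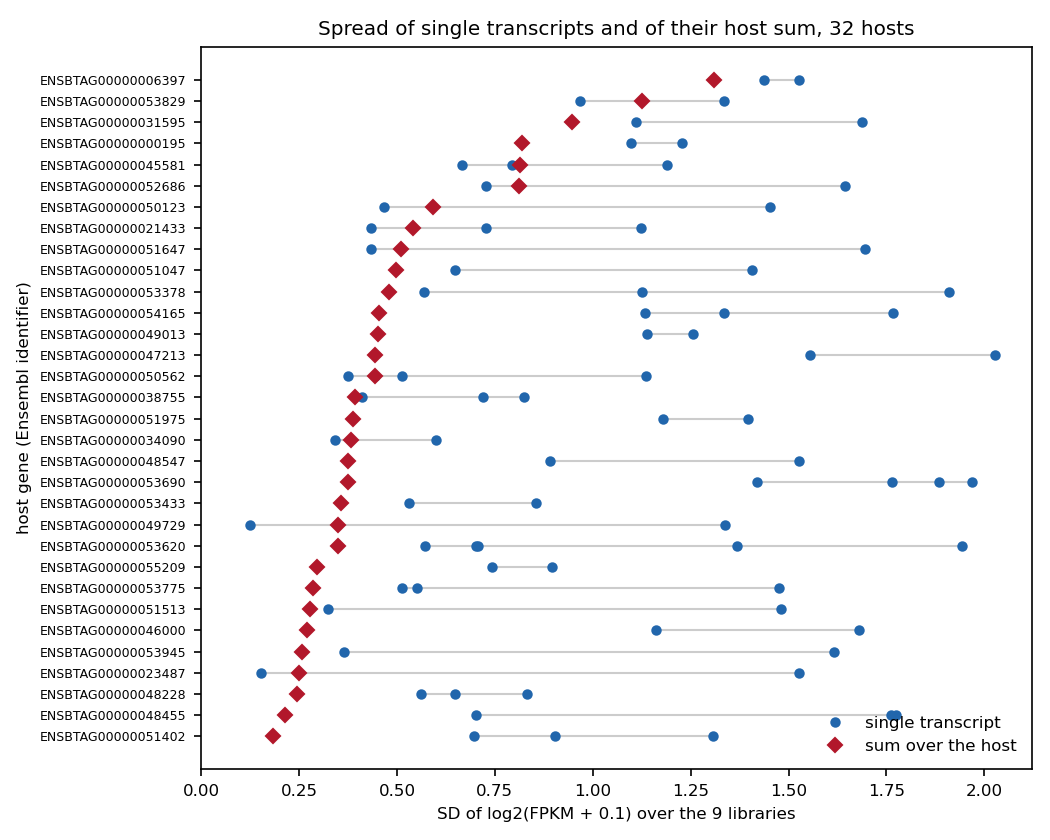
SD of log2(FPKM + 0.1) over the 9 libraries for each transcript (circles) and for the sum over the host (diamonds), for the 32 hosts with 2 or more members, in order of the SD of the sum. At 22 hosts the diamond lies to the left of every circle.

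The host ENSBTAG00000053690 (chromosome 18, 15484445 to 15548909), whose 4 transcripts overlap the sense lncRNA NETO2-OT1, showed this most plainly. TCONS_00051329 (OT2) had 2.23, 0 and 0.0950 FPKM at 0 h, 0.0718, 2.61 and 2.48 at 6 hpi and 1.39, 0.263 and 2.32 at 12 hpi. TCONS_00051327 (OT1) was listed above 1 FPKM in 0 h replicate 2 (1.09) and 6 hpi replicate 1 (2.83), where OT2 was near 0. TCONS_00051330 (OT4) was listed in 0 h replicate 2 alone, at 1.82 FPKM. TCONS_00051331 (OT5) reached 1.35 FPKM in 0 h replicate 3 and 1.18 FPKM in 12 hpi replicate 2, libraries in which OT2 was again low. The sum of the 4 was 3.10, 2.90 and 1.44 FPKM at 0 h, 2.90, 2.61 and 2.48 at 6 hpi and 1.69, 1.80 and 2.33 at 12 hpi. Each library thus had 1.44 to 3.10 FPKM at this host, held by different transcripts, and replicates of the same time point differed in which transcript that was.

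On the X chromosome the transcript with primers behaved alike. Its companion at ENSBTAG00000047213, TCONS_00157694 (OT1, 49911778 to 49993278), had 1.98, 1.74 and 2.91 FPKM at 0 h and 1.25, 1.88 and 3.39 at 6 hpi. At 12 hpi it had 2.70, 0.000378 and 2.22 FPKM, and the library with 0.000378 is that in which OT3 was at 3.87 FPKM. The sum of both lay between 1.74 and 2.91 FPKM at 0 h and between 1.74 and 3.39 FPKM at 6 hpi, and was 2.75, 3.87 and 3.50 FPKM at 12 hpi. The sums at 12 hpi overlapped those of both other time points.

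The host with the most members was ENSBTAG00000053620 on chromosome 15 (32744314 to 32768016), with 5. TCONS_00039136 (OT4) had 0.825 to 4.15 FPKM, TCONS_00039138 (OT5) 0.742 to 3.98 and TCONS_00039140 (OT8) 0.517 to 1.67, and all of them were above 0 in all 9 libraries. TCONS_00039132 (OT2) was listed in 6 hpi replicate 1 alone, at 1.62 FPKM. TCONS_00039137 (OT6), with the same ends as OT5, was listed in 12 hpi replicates 1 and 2 alone, at 2.11 and 1.93 FPKM. The sum ranged from 4.42 to 9.69 FPKM at 0 h, and the libraries of 6 hpi (7.12 to 8.51) and 12 hpi (5.20 to 7.54) lay within that range.

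Other hosts showed the same on a smaller scale. At ENSBTAG00000053378 (chromosome 3, 106970601 to 106998851) OT1 (TCONS_00110740) ranged from 0 to 4.49 FPKM, with 0 in 12 hpi replicate 2, where OT2 (TCONS_00110741) had its highest value of 3.55 FPKM. OT3 (TCONS_00110742) ranged from 0.000722 to 0.957 FPKM. At ENSBTAG00000051402 (chromosome 26, 49348362 to 49374282) the 3 transcripts had SDs of 0.70, 0.90 and 1.31 on the log2 scale and their sum the lowest of all, 0.18, with 3.18 to 4.59 FPKM. By contrast, the 4 members of ENSBTAG00000050562 on chromosome 18 had a median SD of 0.48, close to the 0.44 of their sum. OT3 (TCONS_00056842) ranged from 0 to 1.07 FPKM, while OT2, OT5 and OT7 (TCONS_00056841, TCONS_00056836 and TCONS_00056838) stayed between 0.282 and 1.22 FPKM. The sum over this host was lower than at 0 h at 6 hpi (log2 fold change −0.67) and 12 hpi (−0.65), without overlap. Neither met the thresholds of the study (limma, adjusted p = 0.406 and 0.282). At 6 hpi the gap was narrow, with 2.32 FPKM in 0 h replicate 3 and 2.30 FPKM in 6 hpi replicate 1. The highest sums were in 0 h replicates 1 (2.98) and 2 (3.37), which had the lowest stated shares of mapped reads. The part of this was not tested.

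**Figure D2:**
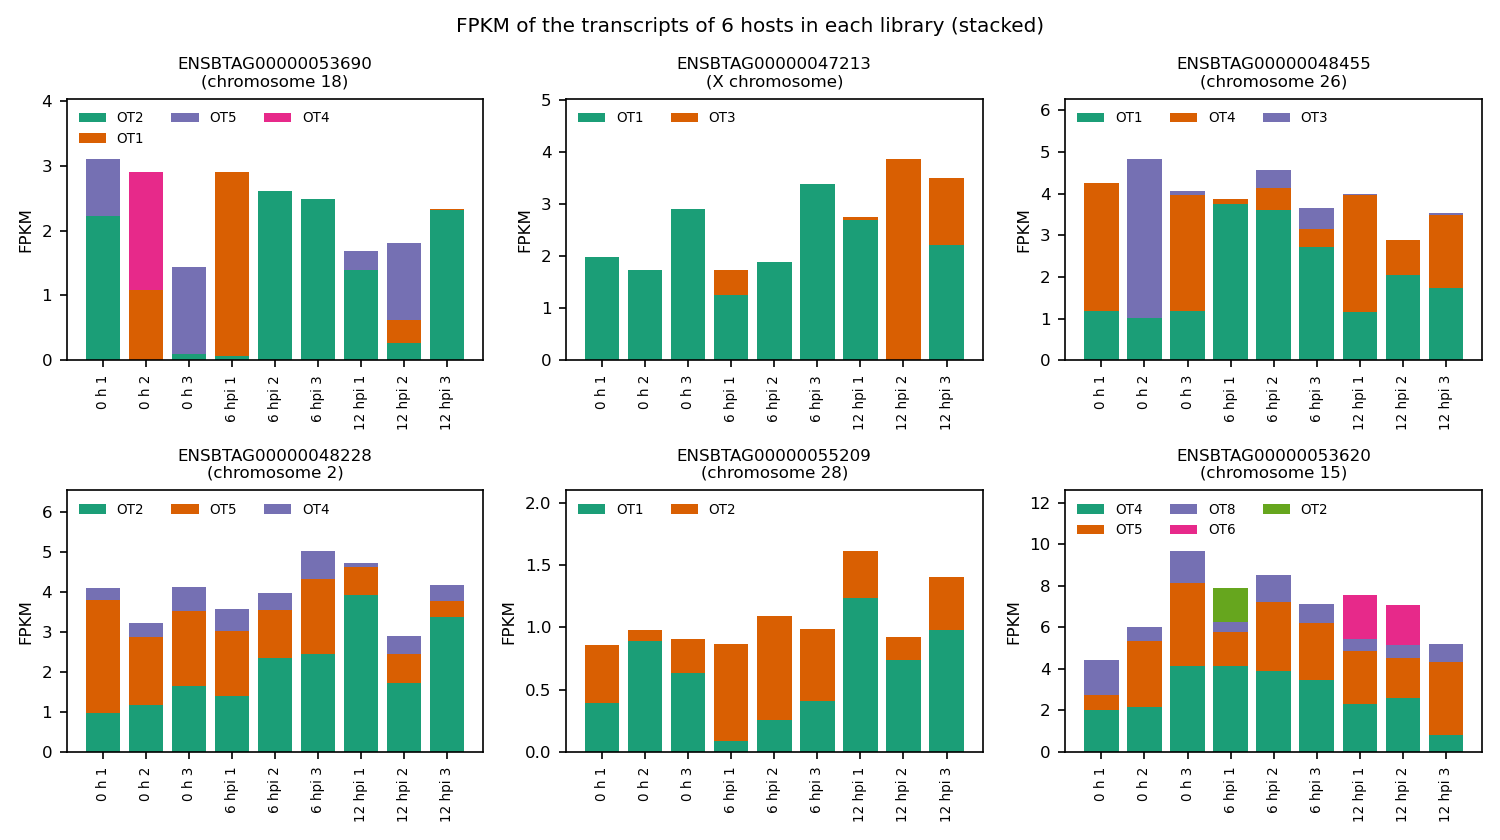
FPKM of each transcript, stacked, in the 9 libraries for 6 hosts. The height of a bar is the sum over the host and the colours are its transcripts, which change places between libraries while the height changes less, for example 2.88 to 4.82 FPKM at ENSBTAG00000048455.

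Among members with a mean of at least 1 FPKM the steadiest was TCONS_00000807 (ENSBTAG00000049729-OT1, chromosome 1, 52712068 to 52777264), with 1.35, 1.49 and 1.12 FPKM at 0 h, 1.11, 1.21 and 1.26 at 6 hpi and 1.21, 1.25 and 1.34 at 12 hpi. Its SD on the log2(FPKM + 0.1) scale was 0.13. TCONS_00000808, the OT2 of that host, was listed in 0 h replicate 3 alone, at 1.51 FPKM. TCONS_00123963 (ENSBTAG00000023487-OT1) followed with an SD of 0.15 and 1.87 to 2.53 FPKM, then TCONS_00093879 (ENSBTAG00000053639-OT1) with 0.19, TCONS_00090370 (ENSBTAG00000051035-OT1) with 0.21, TCONS_00071060 (ENSBTAG00000005315-OT1) with 0.22 and TCONS_00020898 with 0.23. The widest at that level were TCONS_00051329 (1.97), TCONS_00110740 (1.91), TCONS_00096949 (1.77), TCONS_00140018 (ENSBTAG00000054165-OT3, 1.77), TCONS_00157694 (1.55) and TCONS_00027838 (ENSBTAG00000053775-OT3, 1.48). All 6 of the widest belong to hosts with 2 or more members, and 5 of them were listed at 0 in at least 1 library, TCONS_00157694 being the exception.

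The comparisons ask which of these transcripts differ between time points, where LPS, time in culture and plate change together. Of the 168, 139 passed the filter of more than 0.5 FPKM in at least 3 of 9 libraries and were tested, and 29 were not, 16 of them at hosts with several members. The filter used all 9 libraries, also in fits with libraries left out. A member low at 1 time point could thus be tested only through the others. Calls were made at the thresholds of the study, a log2 fold change of more than 1 in size with p under 0.05 before adjustment, with limma on log2(FPKM + 0.1). Fold changes are on that scale, which understates changes at low values. At an adjusted p under 0.05 (limma, Benjamini-Hochberg over 1948 tested lncRNAs in each comparison), 0 members were called in any comparison. The smallest adjusted p of a member was 0.239 at 6 hpi against 0 h, 0.111 at 12 hpi against 0 h and 0.419 at 12 hpi against 6 hpi, and 11, 15 and 12 members had an unadjusted p under 0.05 (9.8%, 14.2% and 8.06% of all tested lncRNAs did). In bulk RNA, fewer cells that hold a transcript and less of it in each cell cannot be told apart.

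At 6 hpi against 0 h, 3 members were higher and 4 lower at the thresholds, 5.04% of the 139, against 6.06% of all tested lncRNAs (3.75% higher and 2.31% lower). At 12 hpi against 0 h, 9 were higher and 5 lower, 10.1% against 9.6% of all (6.37% higher and 3.23% lower). At 12 hpi against 6 hpi, 8 were higher and 4 lower, 8.63% against 5.39% of all (3.49% higher and 1.9% lower). The shares against 0 h were thus close to those of all tested lncRNAs. The libraries of the time points did not overlap for 17 members at 6 hpi against 0 h (12.2%, against 16.6% of all), for 21 at 12 hpi against 0 h (15.1%, against 22.6%) and for 20 at 12 hpi against 6 hpi (14.4%, against 15.1%). The median log2 fold change of the members was −0.08, 0.06 and 0.08 in the 3 comparisons, against 0.05, 0.11 and 0.07 for all tested lncRNAs. With values centred on the library median the split was 2 higher and 5 lower at 6 hpi against 0 h and 4 higher and 5 lower at 12 hpi against 0 h. Without 0 h replicates 1 and 2 the counts against 0 h were 4 at 6 hpi and 5 at 12 hpi, of which 1 and 2 were calls made with all libraries.

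**Figure D3:**
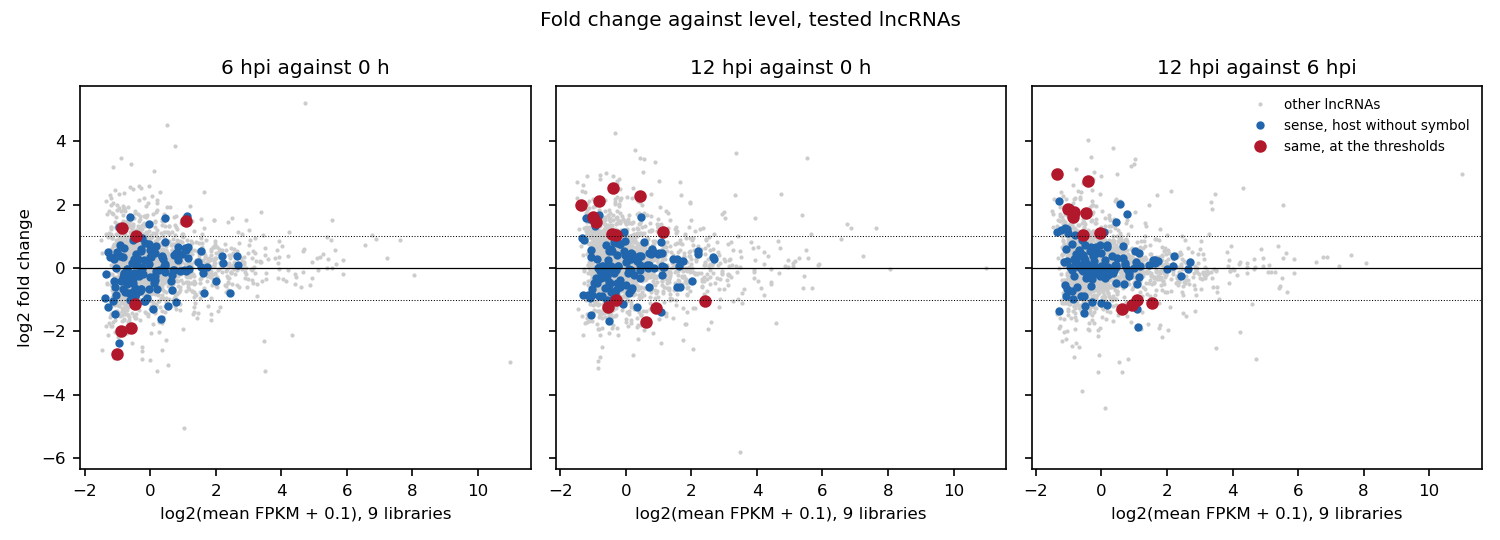
Log2 fold change against log2(mean FPKM + 0.1) for the 1948 tested lncRNAs in the 3 comparisons. Sense lncRNAs at hosts without symbols are blue, those at the thresholds of the study red (7, 14 and 12), and dotted lines mark a log2 fold change of 1 in either direction.

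At 6 hpi the clearest transcript was TCONS_00096946 (ENSBTAG00000048455-OT1, chromosome 26, 39948379 to 39986252). It had 1.18, 1.00 and 1.18 FPKM at 0 h, 3.76, 3.59 and 2.71 at 6 hpi and 1.16, 2.05 and 1.73 at 12 hpi. The 3 libraries of 6 hpi were above all others. Its log2 fold change was 1.49 (SE 0.27, adjusted p = 0.239) at 6 hpi against 0 h, and −1.0 at 12 hpi against 6 hpi, where the call was lost without 6 hpi replicate 1 (−0.92) or 2 (−0.95) or 12 hpi replicate 1 (−0.78). Its companions had other patterns. TCONS_00096949 (OT4) had 3.06, 0 and 2.79 FPKM at 0 h, 0.116, 0.539 and 0.439 at 6 hpi and 2.81, 0.828 and 1.75 at 12 hpi, and TCONS_00096948 (OT3) had 3.82 FPKM in 0 h replicate 2, where OT4 was at 0, and at most 0.511 FPKM elsewhere. The sum over the host was 4.26, 4.82 and 4.05 FPKM at 0 h and 3.87, 4.58 and 3.66 at 6 hpi, with a log2 fold change of −0.12.

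The pair at ENSBTAG00000055209 on chromosome 28 (29067527 to 29167541), which overlaps the sense lncRNA P4HA1-OT1, moved in opposite directions at 6 hpi. TCONS_00101708 (OT1) had 0.392, 0.887 and 0.637 FPKM at 0 h, 0.0867, 0.256 and 0.407 at 6 hpi and 1.24, 0.739 and 0.979 at 12 hpi. TCONS_00101709 (OT2) had 0.465, 0.0954 and 0.269 FPKM at 0 h, 0.783, 0.837 and 0.579 at 6 hpi and 0.377, 0.184 and 0.430 at 12 hpi. OT1 was thus lowest and OT2 highest at 6 hpi, although OT1 overlapped between 0 h and 6 hpi. The log2 fold changes at 6 hpi against 0 h were −1.14 for OT1 (SE 0.46, adjusted p = 0.509) and 1.26 for OT2 (SE 0.49, adjusted p = 0.509), and that of their sum was 0.09. OT2 passed the filter of 0.5 FPKM only through the 3 libraries of 6 hpi, so it was tested because it was high there, and its part in the pair is a description. OT1 passed it only through libraries of 0 h and 12 hpi. OT1 lost its call without 0 h replicate 2 (−0.90) or 3 (−1.11), 6 hpi replicate 1 (−0.74) or 2 (−1.21) or 12 hpi replicate 3 (−1.14). OT2 lost it without 0 h replicate 2 (0.85) or 3 (1.31) or 6 hpi replicate 1 (1.21) or 2 (1.17). At 12 hpi against 6 hpi OT1 was higher by 1.72 (SE 0.46, adjusted p = 0.462). It was called with each library left out, but the filter was not applied again in those fits. With no library of 6 hpi above 0.5 FPKM, OT1 was tested because it was high at the other time points. Its fold changes are thus a description too.

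Of the other members lower at 6 hpi, TCONS_00014837 and TCONS_00039904 were below 0.2 FPKM in every library there. TCONS_00014837 (ENSBTAG00000051068-OT2, chromosome 11, 682549 to 699726) had 0.887, 0.955 and 0.433 FPKM at 0 h, 0, 0.0994 and 0 at 6 hpi and 0.295, 0.587 and 0.258 at 12 hpi, and the libraries of 6 hpi were below all others. Its log2 fold change against 0 h was −2.71 (SE 0.60, adjusted p = 0.286). TCONS_00039904 (ENSBTAG00000054207-OT2, chromosome 15, 54063681 to 54146788), 56.7 kb from the sense lncRNA XRRA1-OT1, had 1.13, 0.693 and 0.351 FPKM at 0 h, 0, 0.164 and 0.164 at 6 hpi and 0.406, 0.386 and 0.695 at 12 hpi, with a log2 fold change of −1.99 (SE 0.58, adjusted p = 0.339). Here too the libraries of 6 hpi lay below all others. Both transcripts passed the filter through 3 libraries, none of 6 hpi. They were thus tested because they were high at the other time points, and these fold changes are a description. Both were higher at 12 hpi than at 6 hpi, by 1.87 and 1.60. The first of these calls was lost without 12 hpi replicate 2 (1.58) and the second without 6 hpi replicate 1 (1.14) or 12 hpi replicate 3 (1.37). The comparisons share the libraries of 6 hpi, so low values there enter both.

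TCONS_00056855 (ENSBTAG00000021433-OT2, chromosome 18, 59536782 to 59666728) had 0.919, 1.39 and 0.648 FPKM at 0 h and 0.278, 0.502 and 0 at 6 hpi, without overlap, and a log2 fold change of −1.88 (SE 0.67, adjusted p = 0.509). The call was lost without 0 h replicate 2 (−1.62) or 6 hpi replicate 3 (−1.13), and the sum over its 3 transcripts had a log2 fold change of −0.96. TCONS_00061180 (ENSBTAG00000038770-OT1, chromosome 19, 6059400 to 6207981), 24.2 kb from PCTP-OT1, was the single member called against 0 h at both times. It had 0.464, 0.248 and 0.273 FPKM at 0 h, 0.575, 1.23 and 0.555 at 6 hpi and 0.858, 0.491 and 1.13 at 12 hpi, and all 6 libraries after LPS were above those of 0 h. Its log2 fold changes were 1.00 and 1.08 (SE 0.43 each). It passed the filter only through libraries after LPS. The call at 6 hpi was lost without 0 h replicate 2 (0.87) or 3 (0.92), 6 hpi replicate 2 (0.67) or 12 hpi replicate 1 (1.00), and that at 12 hpi without 0 h replicate 2 (0.95) or 3 (1.00) or 12 hpi replicate 1 (1.03) or 3 (0.85). Both calls were also lost with values centred on the library median (0.95 in each).

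**Figure D4:**
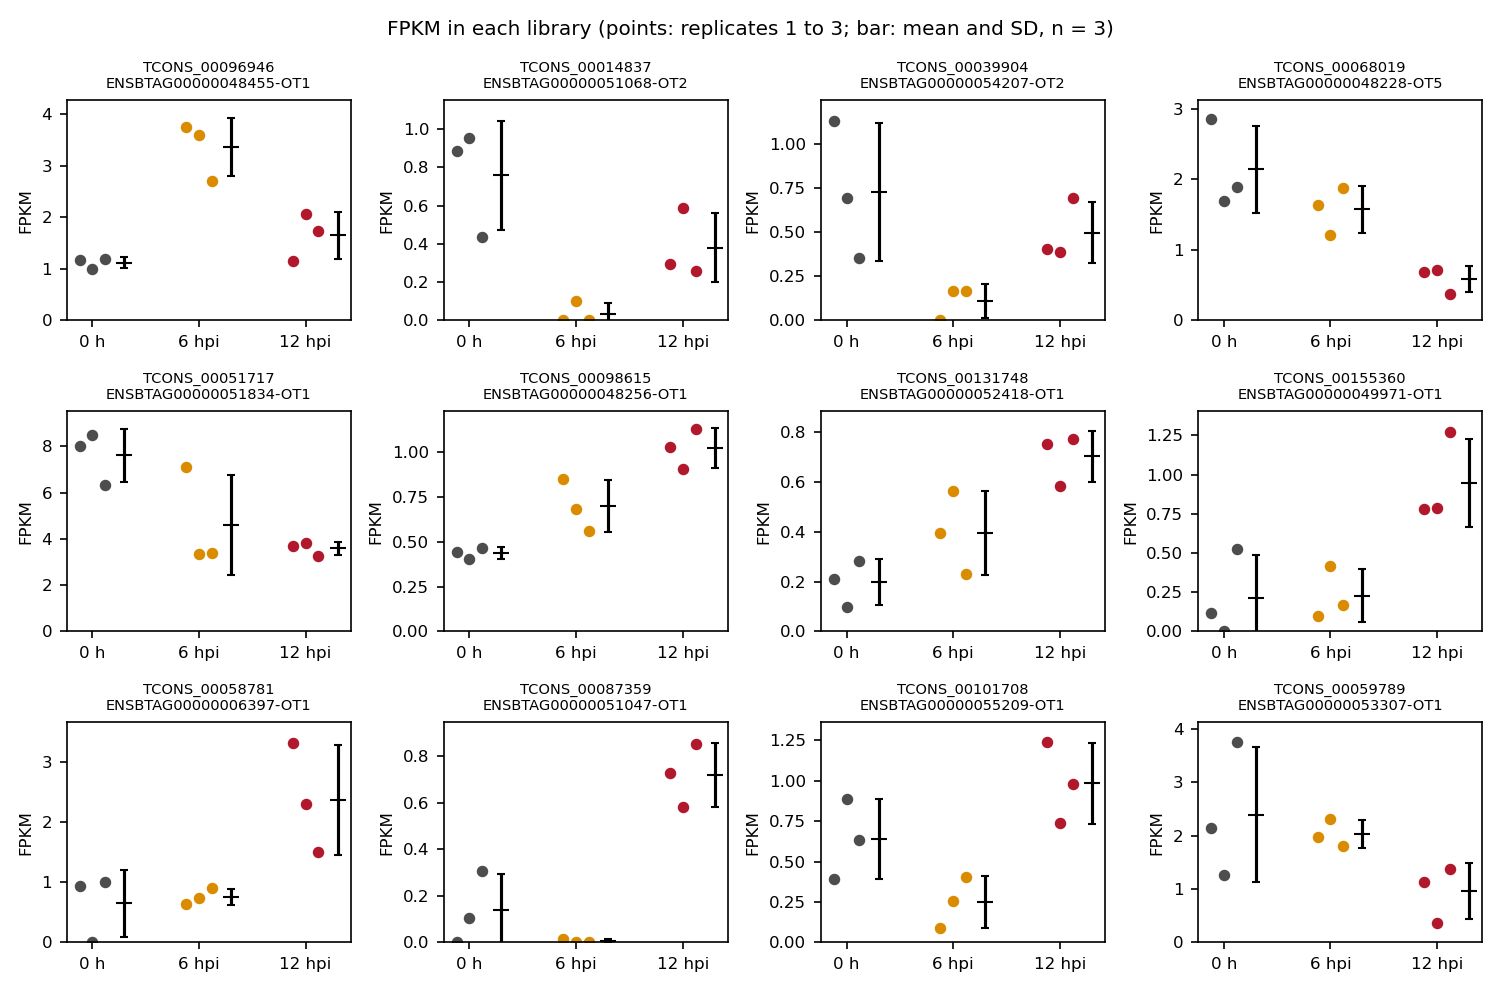
FPKM of 12 sense lncRNAs at hosts without symbols in each library (points) with the mean and SD of the 3 replicates (bar, not drawn below 0) at 0 h, 6 hpi and 12 hpi. TCONS_00096946 is highest at 6 hpi, TCONS_00014837 and TCONS_00039904 are lowest there, and TCONS_00068019 is lowest at 12 hpi.

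At 12 hpi the smallest p of a member belonged to TCONS_00068019 (ENSBTAG00000048228-OT5, chromosome 2, 124853002 to 124878999), whose host lies 14.6 kb from RCC1-OT1. It had 2.85, 1.70 and 1.89 FPKM at 0 h, 1.64, 1.22 and 1.88 at 6 hpi and 0.691, 0.710 and 0.381 at 12 hpi, where all 3 libraries were below those of both other time points. Its log2 fold change was −1.70 (SE 0.32, adjusted p = 0.111) against 0 h and −1.29 (SE 0.32, adjusted p = 0.419) against 6 hpi, and both calls held with each library left out. TCONS_00068015, the OT2 of the same host, had 0.959, 1.18 and 1.64 FPKM at 0 h, 1.39, 2.34 and 2.44 at 6 hpi and 3.93, 1.73 and 3.38 at 12 hpi. It was higher at 12 hpi than at 0 h by 1.15 (SE 0.37, adjusted p = 0.232), without overlap, and the call was lost without 0 h replicate 1 (0.98) or 12 hpi replicate 1 (0.92). OT4 (TCONS_00068012) had 0.113 to 0.713 FPKM and a log2 fold change of −0.33. The sum over the host was 3.23 to 4.11 FPKM at 0 h and 2.90 to 4.73 FPKM at 12 hpi, with a log2 fold change of 0.02. At this host OT5 was the larger share at 0 h and OT2 at 12 hpi, while the sums of the time points overlapped.

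Members that are the only lncRNA of their host also differed at 12 hpi. TCONS_00051717 (ENSBTAG00000051834-OT1, chromosome 18, 26447655 to 26471506), among the most abundant, had 8.02, 8.47 and 6.31 FPKM at 0 h, 7.10, 3.34 and 3.39 at 6 hpi and 3.69, 3.82 and 3.27 at 12 hpi. Its highest values were in 0 h replicates 1 and 2 and 6 hpi replicate 1, which had the lowest stated shares of mapped reads. The part of this was not tested. All values at 12 hpi were below those at 0 h, with a log2 fold change of −1.05 (SE 0.30, adjusted p = 0.204), and the fold change was −0.97 without 0 h replicate 2 and −0.99 without 12 hpi replicate 3, just short of the threshold. TCONS_00098615 (ENSBTAG00000048256-OT1, chromosome 26, 42805993 to 42855735) had 0.445, 0.401 and 0.466 FPKM at 0 h, 0.848, 0.679 and 0.561 at 6 hpi and 1.03, 0.904 and 1.13 at 12 hpi, and the 3 time points did not overlap. Its log2 fold change at 12 hpi against 0 h was 1.06 (SE 0.27, adjusted p = 0.188), 0.99 without 12 hpi replicate 3 and 0.92 with values centred on the library median. TCONS_00131748 (ENSBTAG00000052418-OT1, chromosome 6, 102228098 to 102276957) had 0.212, 0.0992 and 0.284 FPKM at 0 h, 0.393, 0.565 and 0.228 at 6 hpi and 0.752, 0.582 and 0.770 at 12 hpi. The libraries of 12 hpi were above all others, and its log2 fold change of 1.47 (SE 0.45, adjusted p = 0.213) at 12 hpi against 0 h was called with each library left out. The filter was not applied again in those fits. For TCONS_00098615 and TCONS_00131748 no library of 0 h was above 0.5 FPKM, so both were tested because they were high after LPS.

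TCONS_00155360 (ENSBTAG00000049971-OT1, X chromosome, 71203170 to 71330206) had 0.116, 0 and 0.525 FPKM at 0 h, 0.0961, 0.419 and 0.169 at 6 hpi and 0.784, 0.785 and 1.27 at 12 hpi. The libraries of 12 hpi were above the other 6, by 2.10 against 0 h (SE 0.72, adjusted p = 0.251) and by 1.76 against 6 hpi. The first call was lost without 12 hpi replicate 3 (1.89) and moved to 1.48 without 0 h replicate 2 and to 2.80 without 0 h replicate 3. The second was lost without 6 hpi replicate 1 (1.45) or 3 (1.68) or any library of 12 hpi (1.55 to 1.87). No library of 6 hpi, and of 0 h only replicate 3, was above 0.5 FPKM. The transcript was thus tested because it was high at 12 hpi, and both fold changes are a description. TCONS_00059789 (ENSBTAG00000053307-OT1, chromosome 19, 43229814 to 43267788) had 2.15, 1.26 and 3.76 FPKM at 0 h, 1.99, 2.31 and 1.80 at 6 hpi and 1.13, 0.367 and 1.38 at 12 hpi. It was lower at 12 hpi by −1.27 against 0 h (SE 0.50, adjusted p = 0.294), where the values overlapped, and by −1.17 against 6 hpi, where they did not. Without 12 hpi replicate 2 these were −0.76 and −0.66, below the threshold, and the first call was also lost without 0 h replicate 1 (−1.28) or 3 (−0.89), the second without 0 h replicate 1 (−1.17) or any library of 6 hpi (−1.25 to −1.07).

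TCONS_00058781 (ENSBTAG00000006397-OT1, chromosome 19, 28658441 to 28866808) was the one called member with a companion at which the sum over the host was called too. It had 0.943, 0 and 1.01 FPKM at 0 h, 0.638, 0.739 and 0.905 at 6 hpi and 3.33, 2.30 and 1.5 at 12 hpi, where the libraries were above all others. The log2 fold change at 12 hpi against 0 h was 2.28 (SE 0.82, adjusted p = 0.267) for the transcript and 2.27 (SE 0.67, adjusted p = 0.141) for the sum. The call of the transcript was lost without 12 hpi replicate 1 (2.01) or 2 (2.27). It held at 1.14 without 0 h replicate 2 and at 2.87 without 0 h replicate 3. It was listed at 0 in 0 h replicate 2, and without 0 h replicates 1 and 2 the fold change was 1.09 and not called.

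Between 6 and 12 hpi the largest difference of a member was that of TCONS_00087359 (ENSBTAG00000051047-OT1, chromosome 23, 27943277 to 27947334). It had 0, 0.107 and 0.306 FPKM at 0 h, 0.0138, 0 and 0 at 6 hpi and 0.727, 0.579 and 0.852 at 12 hpi, and the libraries of 12 hpi were above all others. Its log2 fold change was 2.96 (SE 0.87, adjusted p = 0.462) against 6 hpi and 2.00 (SE 0.87, adjusted p = 0.352) against 0 h. It passed the filter of 0.5 FPKM only through the 3 libraries of 12 hpi, so it was tested because it was high there, and these values are a description. The call against 0 h was lost without 0 h replicate 1 (1.49) or 2 (2.01) or any library of 12 hpi (1.88 to 2.13). TCONS_00087360, the OT2 that shares its start, had 0.193 to 1.15 FPKM over the 9 libraries and a log2 fold change of −0.23 between 6 and 12 hpi, and the sum of both had one of 0.57. TCONS_00039136 (ENSBTAG00000053620-OT4) was lower at 12 hpi, with 4.13, 3.87 and 3.47 FPKM at 6 hpi and 2.28, 2.58 and 0.825 at 12 hpi. Its log2 fold change was −1.11 (SE 0.43, adjusted p = 0.591), lost without 6 hpi replicate 1 (−1.06) or 2 (−1.10) or 12 hpi replicate 3 (−0.63), and that of the sum over its 5 transcripts was −0.26. The remaining called members were TCONS_00056976, TCONS_00056963, TCONS_00080578 and TCONS_00104323 at 12 hpi against 0 h and TCONS_00053652, TCONS_00056919 and again TCONS_00080578 at 12 hpi against 6 hpi. The size of their log2 fold changes was 1.02 to 2.76, and each was lost without at least 3 of the 9 single libraries, with fold changes of −0.68 for TCONS_00056963 without 12 hpi replicate 1 and 0.77 for TCONS_00053652 without 12 hpi replicate 2, for example. TCONS_00080578 had 0.0113, 0 and 1.19 FPKM at 0 h and 1.44, 1.42 and 1.09 at 12 hpi, which overlap. It was called at 3.74 against 0 h without 0 h replicate 3 and at 3.76 against 6 hpi without 6 hpi replicate 2. The lowest fold changes with a single library left out were 1.89 and 2.23. Its call against 0 h held only without 0 h replicate 3 or 6 hpi replicate 2.

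Calls were also counted by host. In all, 23 members met the thresholds in at least 1 comparison. Of the 23, 2 passed the filter only through libraries of 1 time point. Those that passed through libraries of only 2 time points were TCONS_00014837, TCONS_00039904, TCONS_00056919, TCONS_00056963, TCONS_00061180, TCONS_00098615, TCONS_00101708, TCONS_00104323, TCONS_00131748 and TCONS_00155360. Where the time point without such a library is the lower one of a call, that call is a description. By host, 12 were at hosts with 1 lncRNA, where the sum is the transcript itself, and 11 at hosts with more. Of those 11, 1 (9.09%) had a host sum that met the thresholds in the same comparison. Among the other called lncRNAs at hosts with more than 1 lncRNA this held for 20 of 90 (22.2%), and the difference was not tested. Of 107 member hosts tested, 3 met them at 6 hpi against 0 h (2.8%, against 5.19% of 1619 hosts), 10 at 12 hpi against 0 h (9.35%, against 9.94%) and 6 at 12 hpi against 6 hpi (5.61%, against 4.88%). The smallest adjusted p of a member host was 0.279, 0.113 and 0.473 (limma, Benjamini-Hochberg over 1619 hosts), so that 0 were called at an adjusted p under 0.05, against 0.0618%, 0.124% and 0% of all hosts. An unadjusted p under 0.05 was found for 9, 16 and 6 of them, and for 11.2%, 17.2% and 8.4% of all hosts.

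Several hosts lie side by side, and some of their transcripts overlap across hosts. Members were joined into a stretch where gaps were at most 100 kb. The largest such stretch was on chromosome 18 from 60295041 to 60689499 (394 kb), with 10 members of 5 hosts, ENSBTAG00000034090, ENSBTAG00000045581, ENSBTAG00000038755, ENSBTAG00000048990 and ENSBTAG00000033642. Members of the first and second of these hosts overlap each other and none of the other hosts, with a nearest gap of 0.484 kb. Its most abundant transcript, TCONS_00056962 (ENSBTAG00000048990-OT1), had 4.93, 4.29 and 3.0 FPKM at 0 h, 3.55, 1.73 and 1.90 at 6 hpi and 1.95, 3.20 and 2.73 at 12 hpi. The 10 together had 14.0, 13.7 and 8.10 FPKM at 0 h, 10.3, 6.84 and 6.58 at 6 hpi and 6.09, 9.81 and 8.26 at 12 hpi. The highest values were in 0 h replicates 1 and 2, and 0 h replicate 3 lay among the libraries after LPS. Next after replicates 1 and 2 of 0 h was 6 hpi replicate 1. These are also the libraries with the lowest stated shares of mapped reads, and the part of this was not tested. The median log2 fold change of the 10 was −0.65 at 6 hpi against 0 h, with 9 below and 1 above 0, and −0.62 at 12 hpi against 0 h, with 8 below and 2 above 0. Of them, 2 were called at 12 hpi, TCONS_00056963 (−1.24, SE 0.55) and TCONS_00056976 (−1.02, SE 0.43), neither of which held without 12 hpi replicate 1 (−0.68 and −0.72).

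A further stretch of chromosome 18, from 59448413 to 59680141 (232 kb), held 7 members of the hosts ENSBTAG00000050562 and ENSBTAG00000021433. Their sum was 5.02, 6.77 and 4.01 FPKM at 0 h, 3.86, 3.07 and 2.02 at 6 hpi and 3.25, 3.12 and 3.82 at 12 hpi. All 6 libraries after LPS were below those of 0 h, although 6 hpi replicate 1 was close to 0 h replicate 3. The highest sums were in 0 h replicates 1 and 2, and the highest after LPS was in 6 hpi replicate 1. These libraries had the lowest stated shares of mapped reads, and the part of this was not tested. The median log2 fold change was −0.74 at 6 hpi, with 6 of 7 below 0, and −0.46 at 12 hpi, with all 7 below 0, and 1 of the 7, TCONS_00056855, was called. Members of a stretch partly overlap and may share sequence and reads, so these counts are not independent.

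On chromosome 23, which carries the bovine major histocompatibility complex, 6 members of 4 hosts lay between 27842158 and 27956117 (114 kb), and 3 of them overlapped sense lncRNAs of the host MIC2. Their sum was 4.35, 4.59 and 3.0 FPKM at 0 h, 3.83, 5.20 and 4.08 at 6 hpi and 4.92, 5.89 and 5.04 at 12 hpi. The 3 values at 12 hpi were above those at 0 h and overlapped those at 6 hpi. The median log2 fold change at 12 hpi against 0 h was 0.64, with 5 of 6 above 0, and TCONS_00087359 was the one called. TCONS_00085289 (ENSBTAG00000001476-OT1), inside the same stretch, had 0.924, 0.728 and 0.371 FPKM at 0 h and 1.08, 1.21 and 1.38 at 12 hpi, without overlap, and a log2 fold change of 0.84 (SE 0.39) that did not meet the thresholds.

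**Figure D5:**
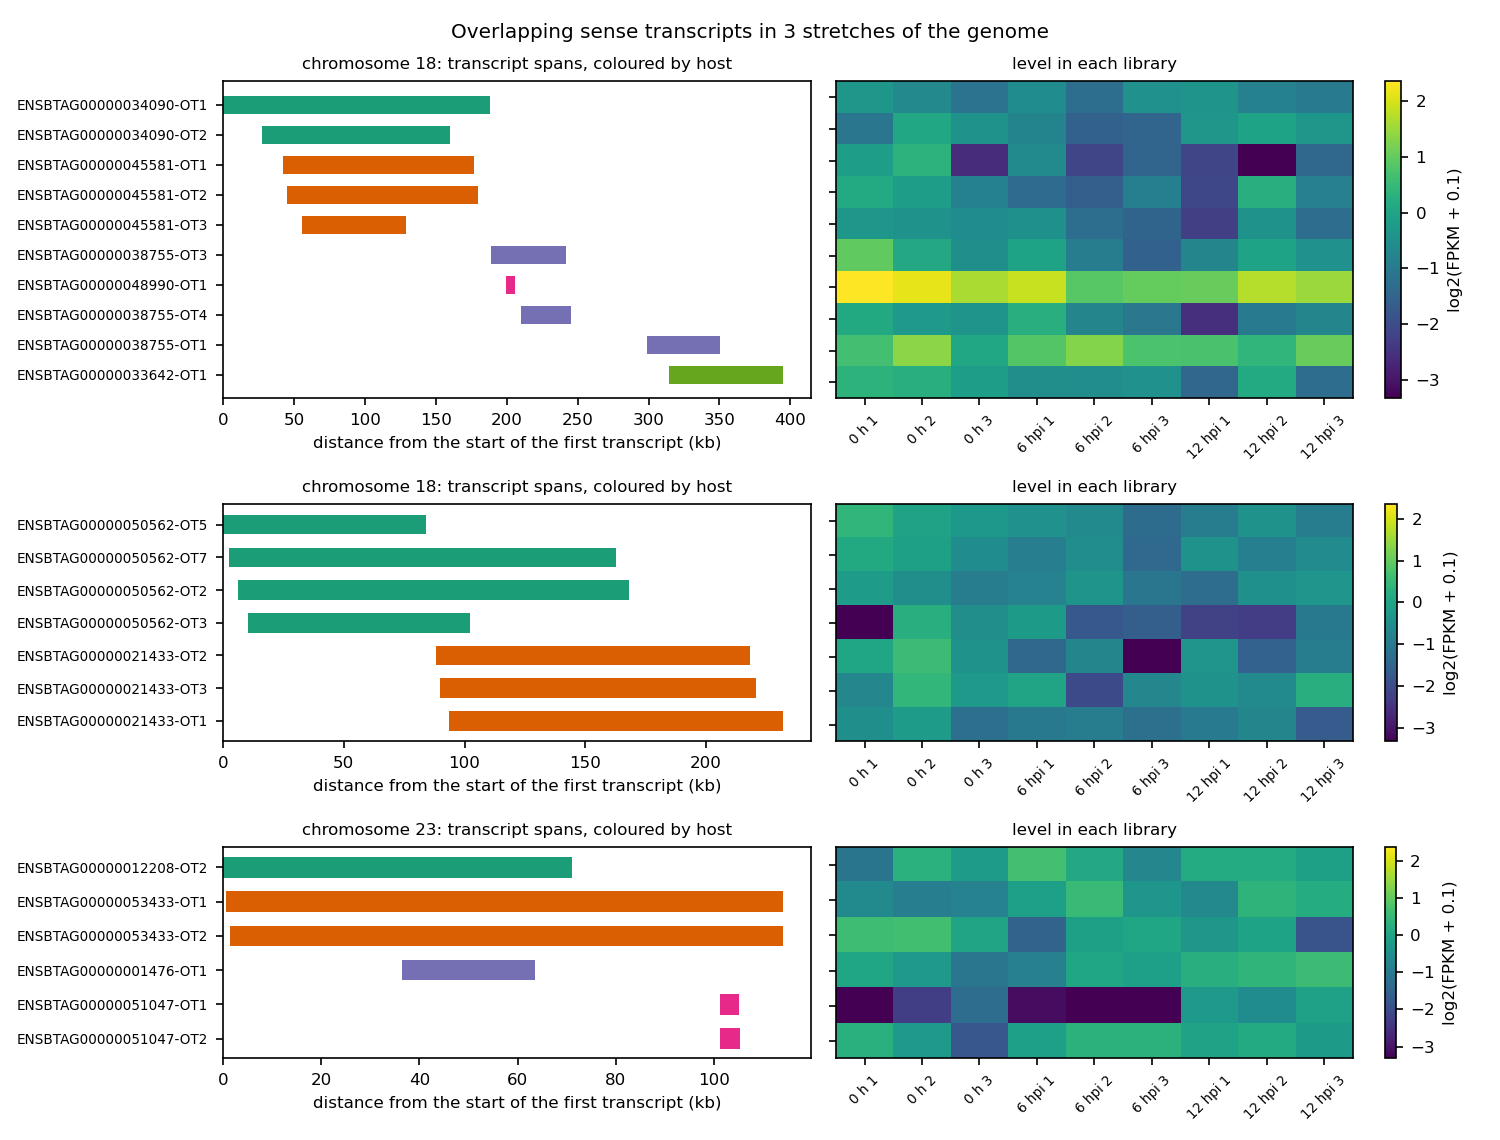
Left, spans of the sense lncRNAs in 3 stretches of chromosomes 18 and 23, coloured by host, by distance from the start of the first transcript in kb. Right, log2(FPKM + 0.1) of each in the 9 libraries. In the top stretch the members of 5 hosts lie side by side and some overlap, and 9 of 10 had a lower fitted value at 6 hpi than at 0 h.

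The study's own lists of differential lncRNAs, chosen on these samples, name 13 of the 168 (7.74%), against 112 of all 2257 lncRNAs (4.96%). Of the 13, 3 (23.1%) passed the filter used here, against 42 of the 112 (37.5%). Most of the 13 were above 0 in few libraries. TCONS_00000808, TCONS_00039132 and TCONS_00051330 were above 0 in 1 library, TCONS_00107237 (ENSBTAG00000050123-OT2), TCONS_00039137 and TCONS_00091848 (ENSBTAG00000052686-OT3) in 2, TCONS_00068972 (ENSBTAG00000046000-OT2) in 3, and TCONS_00051331 and TCONS_00157698 in 4. TCONS_00091848 had 1.89 FPKM in 0 h replicate 3 and 0.689 FPKM in 6 hpi replicate 1. TCONS_00107237 had 1.62 FPKM in 6 hpi replicate 3 and 0.322 FPKM in 0 h replicate 2. TCONS_00064653 (ENSBTAG00000053829-OT2) was above 0 in 8 libraries, with 1.83 FPKM in 12 hpi replicate 3 and at most 0.212 FPKM elsewhere, and TCONS_00080913 (ENSBTAG00000048746-OT2) in 7, with 1.04, 0.329 and 0.473 FPKM at 12 hpi and at most 0.270 FPKM before. The others of the 13 were TCONS_00087359 and TCONS_00096948. Of the 3 that passed the filter, TCONS_00087359 was called here, while TCONS_00068972 and TCONS_00051331, with 1.18 and 1.35 FPKM as their highest values, were not. TCONS_00087359 passed the filter only through the libraries of 12 hpi, and the lists rest on these same libraries. Its call is therefore no independent support for its place in the lists.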

How the data were processed

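The values used are FPKM of 2257 lncRNAs in 9 libraries, deposited by the authors. By the study's methods, ribosomal RNA was depleted, stranded libraries were made, transcripts were merged with Cuffmerge, filtered on length, exons, FPKM and coding potential, and quantified with StringTie. The submitters' processing notes list ARS-UCD1.2 and the tools HISAT2, Cuffdiff (2.1.1) and DESeq (1.10.1) without their roles. Division by length and mapped fragments is part of FPKM. How fragments of overlapping transcripts are divided can move values between transcripts of a host, so FPKM was also summed over all lncRNAs of a host. The deposited set depends on the groups, since each of the 2257 reached a mean of 0.5 FPKM in 1 time point or more. The study gives mapped reads per library, which are not used here, and the deposited values give no reads per transcript.

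LncRNAs above 0.5 FPKM in at least 3 of 9 libraries were fitted as log2(FPKM + 0.1) with limma 3.58.1 in R 4.3.3, all 9 libraries in 1 fit with a trend, two-sided, with Benjamini-Hochberg adjustment within a comparison. The fit was tested on simulated data. Replicates carry numbers, but same-numbered libraries did not deviate together (correlations of −0.0754 to 0.0728), so no block was used. The wells behind the replicates are not given, so p-values measure the spread between these libraries. Alternatives were pseudocounts of 0.5 and 1, no filter, centring, quantile normalization, the 6 libraries compared alone, a replicate block, no trend, and libraries left out.

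The members, lists and rules were chosen with earlier results of these data known. Named are, for each comparison, up to 6 members in each direction at the thresholds without overlap of libraries, by p, members with primers or in the study's lists, the 6 highest and those next to 10 FPKM, all members of the 4 hosts with most members, opposite pairs of a host, and the 6 steadiest and 6 widest with a mean of at least 1 FPKM. A rule for members at 0 in 1 time point and above 0.1 FPKM throughout another found 0. Other names were chosen after their values were seen. CircRNA values were not used, because their identifiers give no host. No genome of this build was used here, so no transcript sequence is printed.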

Additional observations from a re-analysis of the deposited data

How the results depend on the processing

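Counts of calls depended most on the pseudocount. In the order of the comparisons in the text (6 hpi with 0 h, 12 hpi with 0 h, 12 hpi with 6 hpi), the 7, 14 and 12 members called became 2, 4 and 3 with a pseudocount of 0.5 and 1, 1 and 0 with 1, and the 3, 10 and 6 hosts became 1, 3 and 1, and 0, 1 and 0. Larger pseudocounts shrink fold changes of low values by construction. At 12 hpi against 0 h the 14 members became 9 with centring on the library median. With 0 h replicates 1 and 2 left out together, members fell to 4 and 5 against 0 h and hosts to 6 at 12 hpi against 0 h. With each library left out in turn, members ranged from 4 to 11, 7 to 13 and 7 to 14, and hosts from 2 to 9, 4 to 11 and 1 to 7. The cause was not tested. Member counts against 0 h moved by over 1.5 times without 0 h replicate 1 (11 at 6 hpi), 6 hpi replicate 1 (11) or 2 (4), and 12 hpi replicate 1 (8) or 3 (7). Between 6 and 12 hpi they did so without 6 hpi replicate 1 or 2 (7 each). Host counts did so at 6 hpi without 0 h replicate 1 (5) or 3 (8) or 6 hpi replicate 1 (9) or 3 (5), at 12 hpi against 0 h without 12 hpi replicate 3 (4), and between 6 and 12 hpi without 6 hpi replicate 1 or 3 or 12 hpi replicate 3 (3 each) or 12 hpi replicate 2 (1). No filter, quantile normalization, the 6 libraries compared alone and no trend kept all 6 counts within 1.5 times. The replicate numbers do not pair the libraries. With the replicate number as a block the counts of members were 8, 8 and 9 and of hosts 2, 7 and 5.

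Of 33 calls of a member in a comparison, 0 reversed in 18 alternative fits, and 8 held with each library left out. The calls were chosen for large fold changes in these same libraries, so neither count is independent support. The filter was not applied again when libraries were left out. Of the members that held, TCONS_00014837, TCONS_00039904, TCONS_00087359, TCONS_00101708 and TCONS_00131748 had no library above 0.5 FPKM at the lower time point. Members are few, low and partly overlapping, each time point has 3 libraries from 1 plate, and no member passed an adjusted p of 0.05.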
